A study of Mus musculus with 12 samples.

Results

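The genes described here are 10 members of interleukin-6 (IL-6) family and STAT3 signalling, taken by symbol from a count table of 23420 genes. They are the ligands Il6 and Lif, the receptor chains Il6st, Il6ra, Osmr and Il4ra, the kinase Jak1, the transcription factor Stat3, and the STAT3 response genes Socs3 and Pim1. RNA was sequenced from 12 kidneys of male C57BL/6J mice, and the mice of the study were 8 to 15 weeks old. The 4 control kidneys came from nephrectomy, although the sample labels give 20 min of ischemia and 24 h of reperfusion for every kidney. The 8 ischemic kidneys were clamped for 20 min with a tunnelled clamp placed around the renal pedicle in an earlier operation and were taken after 24 h of reperfusion. The study placed that clamp on the left and did its nephrectomies on the right. Whether the control kidneys came from mice later made ischemic is not given in the sources used here. Differences between ischemic and control kidneys cannot be told apart from effects of the earlier operation, the side of the kidney or the drugs given. Conscious mice received brief isoflurane to tighten the clamp, and anaesthetised mice received ketamine and xylazine. The labels of these 8 kidneys contradict each other. The 4 kidneys of ischemia set A are titled ISCH_ANESTH and carry the group field ISCHEMIA conscious, and the 4 kidneys of ischemia set B are titled ISCH_CONCIOUS and carry the group field ISCHEMIA anesthesia. Neutral names are therefore used, and no difference between the sets is assigned to anaesthesia.

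Most cytokines of the IL-6 family bind a receptor chain of their own and then share gp130, the protein encoded by Il6st. Receptor-bound Janus kinases, JAK1 among them, phosphorylate STAT3, which moves to the nucleus and raises the transcription of its targets, including Stat3 itself and Socs3, whose product then binds gp130 and dampens the signal. In the injured kidney the pathway is known for responses of tubular cells and for acute phase proteins.

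The kidney identity of the tissue was checked first. The summed level of 8 kidney epithelial markers lay between 7825 and 8746 CPM (counts scaled to a common library total) in the controls and between 1565 and 2134 CPM in the ischemic kidneys, whereas 5 tubule injury markers summed to between 3.62 and 9.78 CPM in the controls and between 146.7 and 215.9 CPM after ischemia. Total counts ranged from 15367342 to 44793350 per kidney, for which 3 counts correspond to between 0.067 and 0.195 CPM. That floor covers counting error only, and assumes that the deposited counts were not thresholded or deduplicated, on which the sources used here say nothing. Several genes of low level had no count in some kidneys and well above the floor in others of the same group.

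Of the 10 members, 8 passed the low-count filter of edgeR, which kept 11664 genes. Jak1, Stat3 and Socs3 were higher than control and Il6st was lower than control, in both ischemic sets. By the quasi-likelihood test of edgeR, with Benjamini-Hochberg adjusted p-values, 3 members passed the threshold of 0.05 as higher and 1 as lower, in each set. Over all genes tested, 10.5% were called higher and 11.7% lower in set A, and 10.9% were called higher and 11.9% lower in set B. The 2 comparisons use the same 4 control kidneys. The median log2 fold change of the 8 tested members was 1.39 (set A) and 0.64 (set B), beside medians over all tested genes of -0.02 in both. These 8 exclude Il6, which had no count, and Osmr, which was too sparse to pass the filter. The 8 tested members include Lif, Il6ra and Il4ra, whose fold changes are poorly determined because many kidneys had no count. Il6ra, with no count in any control, passed the filter through ischemic kidneys alone, so the medians are no test of a shift of the family. P-values here measure the spread between kidneys.

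**Figure D1:**
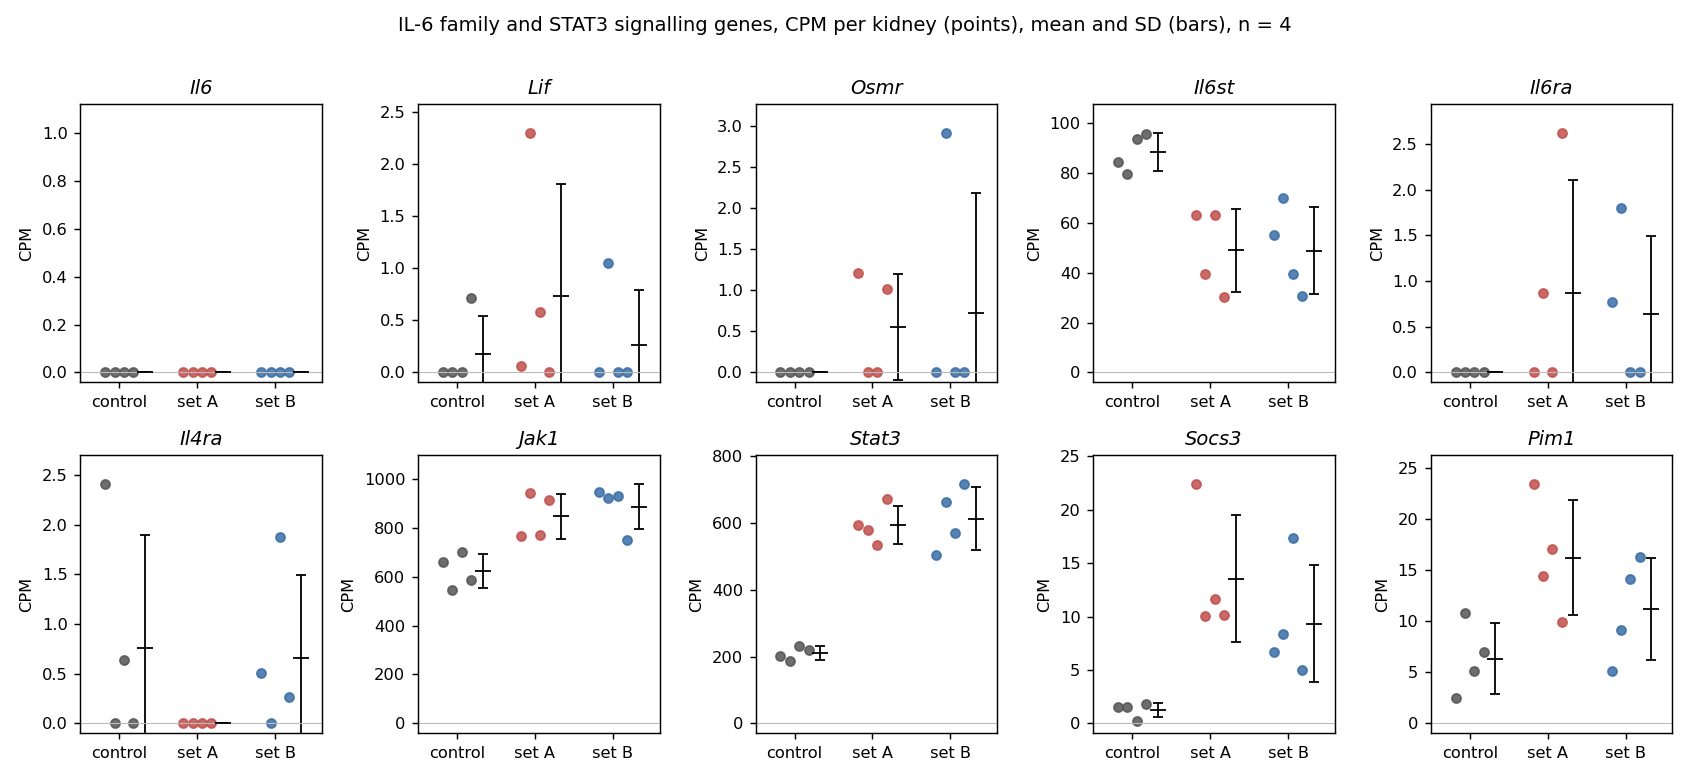
Level of each of the 10 members in each kidney as scaled counts (CPM, linear axis from 0, each panel on its own scale), for 4 control, 4 set A and 4 set B kidneys, with bars for the mean and SD. The ischemic kidneys lie above every control kidney for Stat3, Socs3 and Jak1 and below every control kidney for Il6st, while Il6 is at 0 in all 12 kidneys.

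The ligands among the members were barely detected. Il6 (chromosome 5 of mm10, 30013114 to 30019981), which encodes the cytokine that names the family, had 0 counts in all 12 kidneys, which allows a level of up to 0.067 to 0.195 CPM depending on the kidney, if the counts are complete as deposited. Lif (chromosome 11, 4257557 to 4272514), leukaemia inhibitory factor, had 28 counts in control replicate 4 and 0 in the other controls. In set A it had 2, 53, 26 and 0 counts, and in set B it had 17 counts in replicate 2 and 0 elsewhere. The groups overlapped, and no change in Lif was detectable beyond the spread between kidneys (log2 fold change 1.95, SE 2.63, adjusted p = 0.723 in set A and 0.52, SE 2.56, adjusted p = 0.936 in set B, in edgeR). The value in set A rested on single kidneys, since it was 7.25 (adjusted p = 0.204 in edgeR) without control replicate 4 and 0.21 (adjusted p = 0.981) without set A replicate 2.

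Among the receptor chains, only the shared one was abundant enough to compare. Il6st (chromosome 13, 112464070 to 112510086) encodes gp130, the signalling chain shared by most of the family. Its level was 84.6, 79.5, 93.6 and 95.8 CPM in the 4 controls. In set A it was 63.2, 39.5, 63.0 and 30.3 CPM, and in set B it was 55.2, 70.04, 39.6 and 30.6 CPM. Every ischemic kidney lay below every control kidney. The control mean was 88.4 ± 7.66 CPM (SD, n = 4), and it fell to 49.0 ± 16.7 CPM (set A) and 48.9 ± 17.4 CPM (set B). The log2 fold change was -0.88 (SE 0.26, adjusted p = 0.0191 in edgeR) in set A and -0.87 (SE 0.26, adjusted p = 0.0199) in set B. The call did not hold without certain kidneys: leaving out control replicate 4, or replicate 2 or 4 of set A, raised the adjusted p of set A to as much as 0.0607, and leaving out control replicate 4, or replicate 3 or 4 of set B, raised that of set B to as much as 0.0595.

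In these bulk samples, fewer cells of a type and less RNA per cell cannot be told apart. Sums of markers of other cell types differed between the same groups, mostly through a few genes of each list. The summed level of 5 endothelial markers was 115.9 to 142.4 CPM in the controls, 61.3 to 120.7 CPM (set A) and 51.6 to 101.0 CPM (set B). No marker of the list was at 0 in all kidneys, but Pecam1 and Emcn added little, with control means of 0.885 and 0.335 CPM. Of 4 endothelial markers tested, 0 were called in set A and 1, Tek, was lower in set B. Cdh5 was at 14.1 CPM in the controls, 19.1 CPM (set A) and 15.6 CPM (set B). The macrophage and neutrophil list, of which 10 of 12 genes were in the table, summed to 44.7 to 64.5 CPM in the controls, 9.59 to 26.7 CPM (set A) and 13.7 to 38.1 CPM (set B), and S100a8 was at 0 throughout. Csf1r carried most of that sum, with means of 51.3 CPM in the controls, 13.6 CPM (set A) and 10.6 CPM (set B), and was the only one of 5 tested genes called in either set. The median log2 fold change of those 5 was above 0, at 0.38 (set A) and 1.09 (set B), and the mean of Ptprc was 2.92 CPM in the controls, 3.87 CPM (set A) and 4.45 CPM (set B). Of 7 lymphocyte markers, 6 were at 0 in all kidneys, and Cd3e, the other one, was at 0.672 to 4.65 CPM in the controls (18 to 182 counts), had no count in any ischemic kidney and was called lower in each set (adjusted p = 0.0412 and 0.0472 in edgeR). By contrast, 7 fibroblast and mural cell markers, none at 0 in all kidneys, summed to between 706 and 955.5 CPM in the controls and between 1490 and 3996 CPM over both sets. Of 6 of them tested, Col1a1, Col1a2 and Acta2 were higher in each set and the other 3 were not called. Pdgfra was at 9.96 CPM in the controls, 7.59 CPM (set A) and 6.90 CPM (set B), and Myh11 was at 105.4, 93.0 and 100.4 CPM in that order. Dcn was low, at 0.221 CPM in the controls and 0.362 CPM (set A), with no count in set B. The part of these markers in the levels of Il6st and of the other members was not tested.

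Il6ra, the IL-6 binding chain, and Osmr, the oncostatin M receptor chain, were seen only in ischemic kidneys, and not in all of them. Il6ra (chromosome 3, 89864059 to 89913196) had 0 counts in the 4 controls, 20 and 44 counts in replicates 2 and 4 of set A, 23 and 29 counts in replicates 1 and 2 of set B, and 0 in the other ischemic kidneys. Its adjusted p was 0.105 (set A) and 0.115 (set B) in edgeR. Osmr (chromosome 15, 6813577 to 6874969) had 38 and 17 counts in replicates 1 and 4 of set A, 47 counts in replicate 2 of set B, and 0 in the remaining 9 kidneys. For both genes the ischemic kidneys overlapped the controls at 0. Il6ra did not pass the threshold, and Osmr did not pass the low-count filter and was not tested in edgeR. Exact permutation tests of Osmr CPM gave p = 0.429 for set A and p = 1.0 for set B.

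Il4ra (chromosome 7, 125552120 to 125579474) encodes the receptor chain for IL-4 and IL-13, which signals through JAK1 and STAT6 rather than gp130. It had 49, 0, 17 and 0 counts in the controls, 0 in all 4 kidneys of set A, and 15, 0, 38 and 4 counts in set B. The adjusted p was 0.102 (set A) and 0.978 (set B) in edgeR, and the groups overlapped at 0 counts. For Il6ra and Il4ra the annotation holds an antisense gene on the other strand, and the strand setting of the counting was not stated, so counts of the partners cannot be told apart.

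The kinase and the transcription factor both rose. Jak1 (chromosome 4, 101152367 to 101265282) encodes a Janus kinase used by gp130 and by IL-4 and interferon receptors. It was at 659.8, 545.1, 699.3 and 587.2 CPM in the controls, at 766.9, 940.9, 769.3 and 912.8 CPM in set A, and the values of set B were 944.2, 922.6, 930.3 and 750.0 CPM. The highest control kidney lay below the lowest ischemic kidney, and set B replicate 4 stood apart from the other 3 of its set. The log2 fold change was 0.42 (SE 0.12, adjusted p = 0.0168 in edgeR) in set A and 0.49 (SE 0.12, adjusted p = 0.00595) in set B, or 1.34-fold and 1.40-fold. Without control replicate 2 or 4, or replicate 2 or 4 of set A, the adjusted p in set A was up to 0.0688, whereas in set B it was at most 0.0348 without any 1 kidney. Jak1 overlaps Raver2 on the opposite strand and a pseudogene on its own, so part of its counts may belong to them.

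Stat3 (chromosome 11, 100885098 to 100939540) had the smallest p-values of the members. It was at 202.8, 186.6, 233.0 and 220.6 CPM in the controls. After ischemia it was at 595.4, 578.6, 534.0 and 671.6 CPM in set A, and the values of set B were 503.3, 664.3, 569.7 and 716.7 CPM. The ischemic kidneys were all far above the controls, and the sets overlapped each other. The mean rose from 211 ± 20.3 CPM (SD, n = 4) to 595 ± 57.3 CPM (set A) and 613 ± 95.4 CPM (set B). This was 2.78-fold in set A (log2 fold change 1.47, SE 0.13, adjusted p = 8.58e-08 in edgeR) and 2.86-fold in set B (1.52, SE 0.13, adjusted p = 6.36e-08). The adjusted p was at most 9.24e-07 (set A) and 8.15e-07 (set B) without any 1 kidney. The gene overlaps Stat5a on the opposite strand, and Stat5a, another STAT factor, was at 54.6 ± 13.6 CPM in the controls, 57.0 ± 8.16 CPM (set A) and 55.9 ± 13.4 CPM (set B).

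Socs3 (chromosome 11, 117966079 to 117970047) encodes the inhibitor that STAT3 induces and that binds gp130. It was at 1.52, 1.51, 0.261 and 1.77 CPM in the controls, at 22.4, 10.1, 11.6 and 10.1 CPM in set A, and the values of set B were 6.69, 8.38, 17.3 and 5.01 CPM. Every ischemic kidney was above every control, and set A replicate 1 was the highest. The means were 1.27 ± 0.68 CPM (SD, n = 4) in the controls, 13.6 ± 5.95 CPM (set A) and 9.35 ± 5.49 CPM (set B). The fitted rise was 10.5-fold in set A (log2 fold change 3.39, SE 0.62, adjusted p = 3.65e-04 in edgeR) and 7.25-fold in set B (2.86, SE 0.61, adjusted p = 0.0015). Both calls remained without any 1 kidney, with adjusted p-values of at most 0.00302 (set A) and 0.01 (set B). For Il6st, Jak1, Stat3 and Socs3, the two-sided exact permutation test of CPM gave p = 0.0286 in each set, which is the lowest p that groups of 4 can reach.

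The promoter of Socs3 is shown because it alone among the members holds the symmetric STAT motif TTCNNNGAA within 250 bases before to 50 bases after a RefSeq start. The members have 11 such windows on GRCm38.p6, the build of mm10, and 1 of them (9.09%) holds the motif, beside 8.3% of all 32851 windows. The motif reads the same on both strands. The 250 bases upstream of the Socs3 start are at chr11:117969367-117969616 and are printed for the minus strand, 5′ to 3′, with the motif in capitals, at 154 to 146 bases before the start.
Socs3: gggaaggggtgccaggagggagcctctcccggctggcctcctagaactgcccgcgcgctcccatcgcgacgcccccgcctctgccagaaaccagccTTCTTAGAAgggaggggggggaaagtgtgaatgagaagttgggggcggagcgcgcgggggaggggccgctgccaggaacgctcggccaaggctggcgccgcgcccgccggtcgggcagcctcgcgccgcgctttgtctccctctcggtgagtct
The match describes these letters only and is no measurement of STAT3 binding.

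Pim1 (chromosome 17, 29490753 to 29496112), a kinase gene that STAT3 switches on, was at 2.46, 10.9, 5.15 and 6.95 CPM in the controls, at 23.5, 14.5, 17.1 and 9.93 CPM in set A, and the values of set B were 5.12, 9.19, 14.2 and 16.3 CPM. Both sets overlapped the controls. The log2 fold change was 1.31 (SE 0.48, adjusted p = 0.0569 in edgeR) in set A and 0.77 (SE 0.48, adjusted p = 0.300) in set B. An antisense gene lies on the other strand, so the limit given for Il6ra and Il4ra holds here too. The value for set A lay beside the threshold and passed it under other settings, with an adjusted p of 0.0425 in limma-trend and 0.0354 in DESeq2. Over the fits without 1 kidney, the adjusted p in set A ranged from 0.026 to 0.169 in edgeR.

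The order of the members by level was read per length, as RPKM over the annotated exons. In the controls Jak1 stood at 86.2 RPKM, Stat3 at 22.1, Il6st at 7.96, Pim1 at 1.89 and Socs3 at 0.438, and every other member was below 0.2. The ranges of Jak1, Stat3 and Il6st did not overlap each other, and each control value of Pim1 was above each of Socs3. In set A, Jak1 (117 RPKM) and Stat3 (62.4 RPKM) remained first and second, while Pim1 (4.83), Socs3 (4.69) and Il6st (4.42) lay within each other's ranges. In set B the values were 123 RPKM for Jak1, 64.4 for Stat3, 4.40 for Il6st, 3.33 for Pim1 and 3.23 for Socs3, and the last 3 again overlapped.

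Outside the members, 8 further ligands of the family are described, of which 1 passed the filter. It was higher in each set, beside 10.5% (set A) and 10.9% (set B) of all genes tested. Il11, Osm, Il27, Ebi3 and Il31 had no count in any kidney. Cntf had 33 counts in set B replicate 2 only. Ctf1, cardiotrophin 1, had 21 and 22 counts in control replicates 2 and 4, 69 counts in set A replicate 1, 1 count in set A replicate 4 and 0 elsewhere. The ligand that passed the filter was Clcf1, whose product signals through the CNTF receptor and gp130.

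Clcf1 (chromosome 19, 4214238 to 4223490) was at 3.83, 1.46, 0.0373 and 5.41 CPM in the controls, at 37.9, 28.6, 19.5 and 35.4 CPM in set A, and the values of set B were 21.6, 25.6, 36.8 and 34.7 CPM. No ischemic kidney overlapped a control. The rise was 11.2-fold in set A (log2 fold change 3.48, SE 0.65, adjusted p = 4.67e-04 in edgeR) and 10.9-fold in set B (3.44, SE 0.65, adjusted p = 5.25e-04). A gene model on the same strand overlaps Clcf1, so the split of counts between them is uncertain. The calls of Clcf1 in both sets remained without any 1 kidney, but without control replicate 4 the rise was 17.5-fold (set A) and 16.8-fold (set B).

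Of 5 further receptor chains, 3 passed the filter and 1 fell in each set, beside 11.7% (set A) and 11.9% (set B) of all genes tested. Cntfr (chromosome 4, 41657498 to 41697089), the binding chain for CNTF and for the Clcf1 product, was at 16.2, 9.94, 16.7 and 28.8 CPM in the controls. It was at 4.35, 4.38, 6.23 and 8.39 CPM in set A, and the values of set B were 3.34, 3.85, 3.21 and 11.9 CPM. Set A lay wholly below the controls, and set B did so except for replicate 4. The log2 fold change was -1.64 (SE 0.50, adjusted p = 0.0227 in edgeR) in set A and -1.72 (SE 0.51, adjusted p = 0.0173) in set B. The call was lost without control replicate 4 or replicate 1, 2 or 3 of set A (adjusted p up to 0.129), and without control replicate 4 or replicate 1 or 3 of set B (up to 0.0989). Without set B replicate 4 the log2 fold change in set B was -2.39.

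The other receptor chains did not pass the threshold. Lifr, the LIF receptor chain, was at 1.31 ± 0.452 CPM (SD, n = 4) in the controls, 3.84 ± 2.36 CPM (set A) and 2.30 ± 2.47 CPM (set B) (adjusted p = 0.484 and 0.760 in edgeR). Il11ra1, the IL-11 binding chain, was at 16.7 ± 5.10 CPM in the controls, 8.20 ± 7.20 CPM (set A) and 6.61 ± 4.68 CPM (set B) (adjusted p = 0.263 and 0.131). Il27ra and Il31ra had no count.

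**Figure D2:**
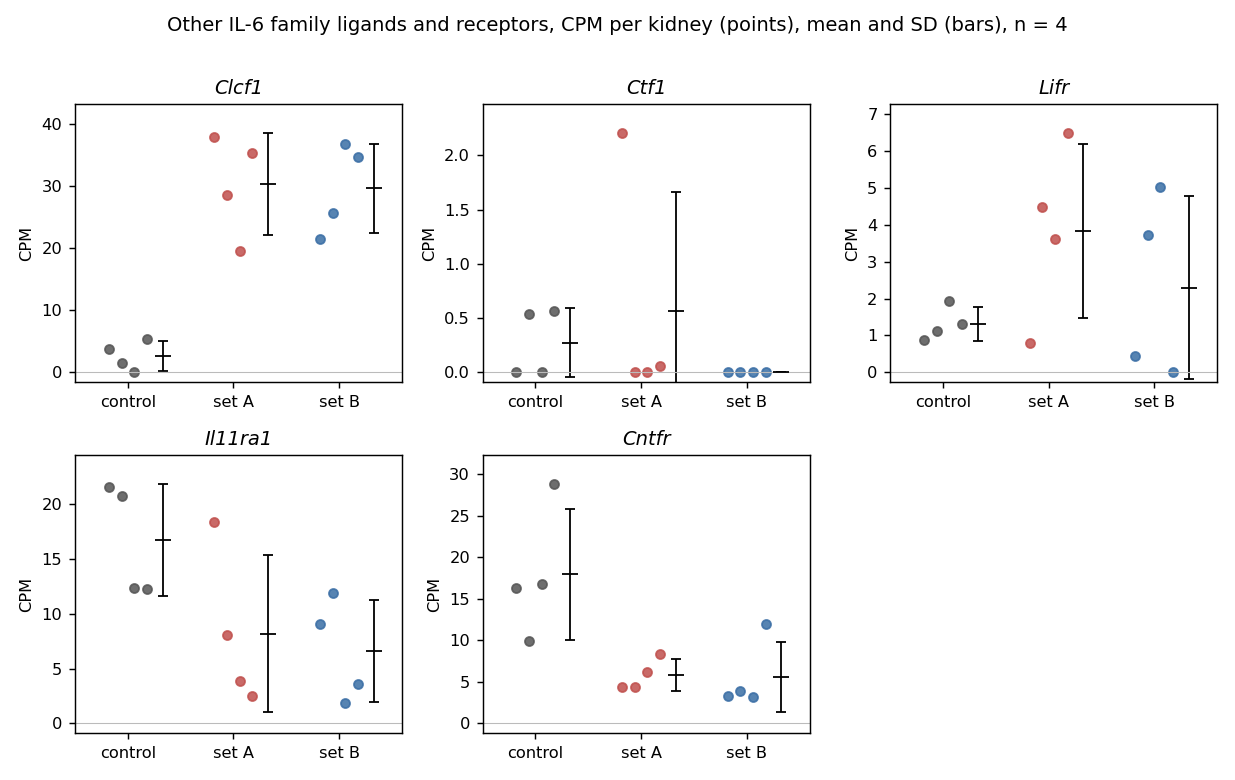
Level of 5 other IL-6 family genes in each kidney as scaled counts (CPM, linear axis from 0, each panel on its own scale), with bars for the mean and SD of 4 kidneys. Clcf1 is higher in every ischemic kidney than in any control, and Cntfr is lower in set A than in any control.

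The Janus kinases and STAT factors outside the members numbered 9, and all 9 were tested. In edgeR with Benjamini-Hochberg adjustment 0 were called in either set. Of all genes tested, 10.5% were called higher and 11.7% lower in set A, and 10.9% and 11.9% in set B. Their median log2 fold change was 0.04 (set A) and -0.09 (set B). The lowest adjusted p-values in edgeR were those of Stat5b, at -0.68 (SE 0.26, adjusted p = 0.0640) in set B, and of Stat6, which acts downstream of Il4ra, at 0.23 (SE 0.13, adjusted p = 0.264) in set A. The difference between Stat3 and these genes was not itself tested.

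Of 15 other negative regulators and receptor sheddases, 13 were tested, of which 1 (set A) and 0 (set B) were called lower, beside 11.7% and 11.9% of all genes tested. None was called higher in either set. The one called, Pias1, which encodes an inhibitor of STAT proteins, was at 139.5 ± 8.26 CPM (SD, n = 4) in the controls, 99.2 ± 12.1 CPM in set A (log2 fold change -0.52, SE 0.14, adjusted p = 0.0101 in edgeR) and 115.2 ± 9.87 CPM in set B (-0.30, SE 0.14, adjusted p = 0.137). Socs7 stood just outside the threshold in set A (-0.55, SE 0.20, adjusted p = 0.0513 in edgeR), as did Socs6 in set B (1.25, SE 0.45, adjusted p = 0.0537). For Ptpn6, a phosphatase of blood cells and epithelia, the adjusted p was 0.105 (set A) and 0.0614 (set B). Of the suppressors of cytokine signalling, Socs3 was the one called in each set; Socs1 and Socs2 did not pass the filter.

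STAT3 targets known from textbooks were mostly higher where they were called. Of 30 such genes outside the members, 22 were tested. In set A 11 were higher and 1 lower, beside 10.5% and 11.7% of all genes tested, and in set B 9 were higher and 2 lower, beside 10.9% and 11.9%. The median log2 fold change of the tested genes was 2.02 (set A) and 1.68 (set B), beside -0.02 for all genes tested in each comparison. The list was chosen with earlier results of these data known, so the comparison with all genes is a description only. Lcn2, with at most 1 count in any control, passed the filter through ischemic kidneys alone. Many genes of the list also answer to other regulators, and 3 of the 30 had no count in any kidney.

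Myc, a growth-promoting transcription factor gene, was at 7.07, 2.63, 5.90 and 4.11 CPM in the controls, at 48.0, 59.7, 65.3 and 61.0 CPM in set A, and the values of set B were 51.8, 43.9, 64.8 and 41.3 CPM. The groups were far apart, with a rise of 11.8-fold in set A (log2 fold change 3.56, SE 0.29, adjusted p = 2.00e-08 in edgeR) and 10.2-fold in set B (3.35, SE 0.29, adjusted p = 4.16e-08). Lcn2, which encodes the iron-siderophore binding protein used as a marker of tubular injury, had at most 1 count in any control. It reached 13.04 ± 7.32 CPM (set A; SD, n = 4) and 15.3 ± 8.25 CPM (set B), at least 126-fold and at least 148-fold higher when each control is set to 3 counts.

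Bcl2l1, a gene against cell death, rose from 151 ± 10.4 CPM (SD, n = 4) to 332 ± 63.9 CPM in set A (adjusted p = 8.36e-06 in edgeR) and 330.1 ± 33.8 CPM in set B (adjusted p = 9.71e-06). Junb, an immediate early transcription factor gene, rose from 34.4 ± 11.2 CPM to 141 ± 44.8 CPM in set A (adjusted p = 1.32e-05 in edgeR) and 109.9 ± 34.2 CPM in set B (adjusted p = 1.13e-04). The calls of Myc, Lcn2, Bcl2l1 and Junb remained in both sets without any 1 kidney. The summed tubule injury markers, Lcn2 among them, rose in the same kidneys, and their part in these levels was not tested.

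The called targets that fell were Vegfa and Pim3, named after their values were seen. Vegfa, the vascular growth factor gene, fell from 704 ± 34.7 CPM (SD, n = 4) to 451 ± 66.3 CPM (set A) and 454 ± 56.3 CPM (set B) (adjusted p = 4.66e-04 and 5.38e-04 in edgeR). Pim3, a kinase gene related to Pim1, was at 108.6 ± 65.8 CPM in the controls, 49.0 ± 26.0 CPM in set A (adjusted p = 0.0755) and 19.4 ± 6.30 CPM in set B (adjusted p = 5.56e-04). It overlapped the controls in both sets, because control replicate 3 was at 18.9 CPM and the other controls were at 99.9 CPM or more.

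Promoter windows were scanned for 26 of the 30 targets, and Myc, Ccnd1, Cebpd and Hp were not scanned. The motif TTCNNNGAA was found in 6 of the 31 windows of those 26 genes (19.4%), against 8.3% of all promoter windows. Among the called targets that were scanned it was in the windows of Fga and Fgb, which encode fibrinogen chains of the acute phase and are named here for that match. The other windows with the motif were those of Icam1 and Irf1, which were tested and called in neither set, Steap4, which did not pass the filter, and Reg3b, which had no count in any kidney. The motifs of Fga and Fgb are set below beside that of Socs3, each 5′ to 3′ on the strand of its gene, with the 9 motif letters in capitals.
Socs3: TTCTTAGAA
Fga: TTCCTGGAA
Fgb: TTCGAGGAA
They lie 154 to 146, 234 to 226 and 162 to 154 bases before the RefSeq start. Fga rose 3.51-fold in set A (adjusted p = 0.00562 in edgeR) and 5.01-fold in set B (adjusted p = 7.68e-04). Fgb rose from 0.979 ± 1.17 CPM (SD, n = 4) in the controls, 2 of which had no count, to 7.74 ± 4.13 CPM in set A (adjusted p = 0.0439 in edgeR) and 15.7 ± 8.05 CPM in set B (adjusted p = 0.00965). The call of Fgb in set A was lost in 9 of the 12 fits without 1 kidney, with an adjusted p of up to 0.105, and in the fit of the 2 groups only. Without control replicate 1 the log2 fold change of Fgb was 3.79 (set A) and 4.81 (set B), against 2.99 and 4.02 with all kidneys, and without set B replicate 3 that of Fga in set B was 1.70, against 2.33.

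**Figure D3:**
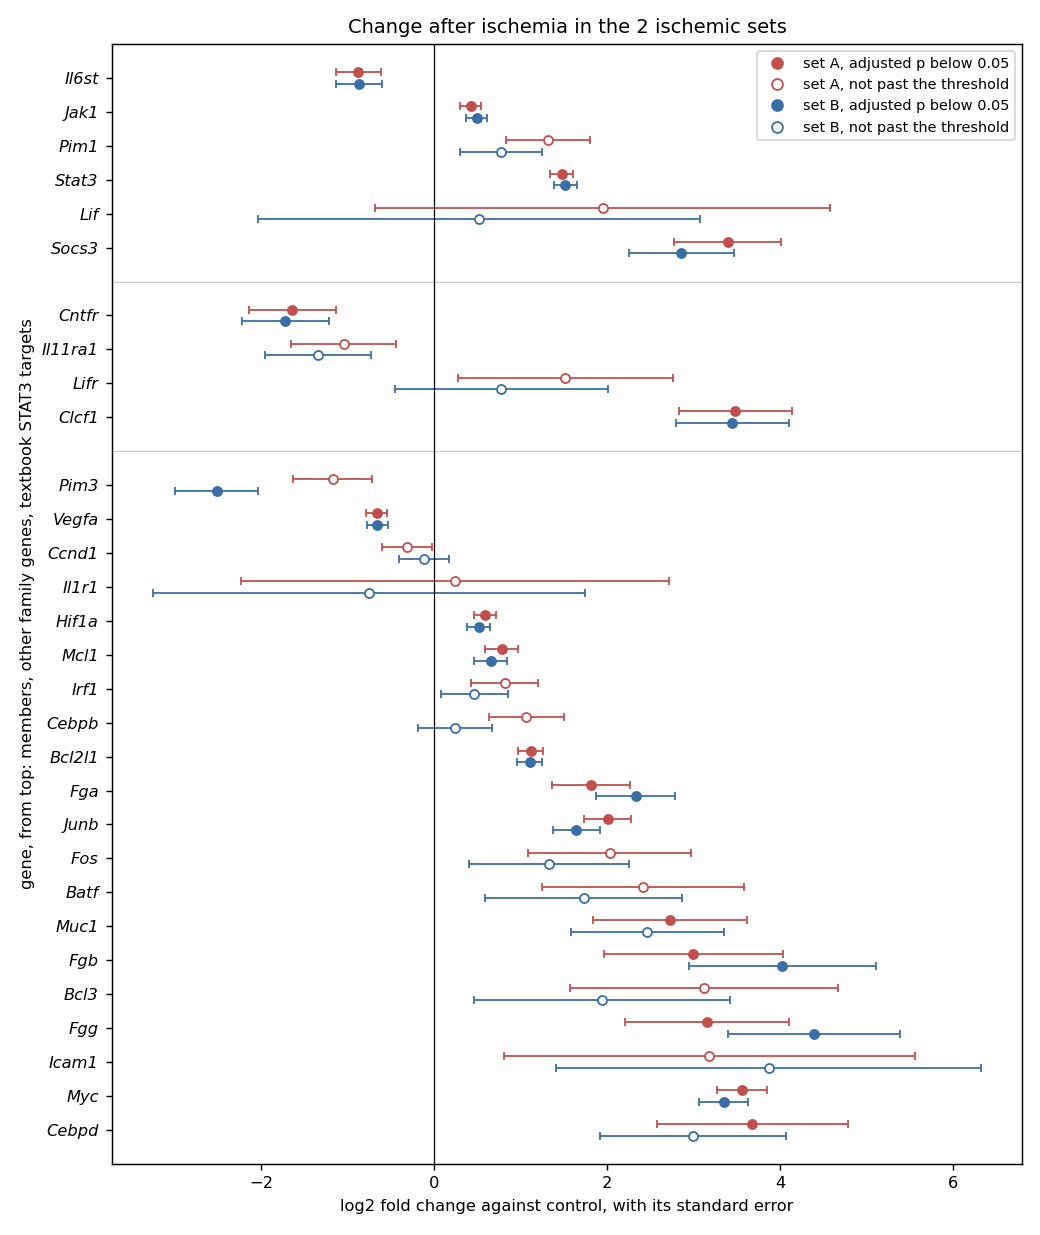
Log2 fold change against control with its standard error for tested members (top), other IL-6 family genes (middle) and textbook STAT3 targets (bottom), in set A (red) and set B (blue), with filled points for an adjusted p below 0.05. Genes with a group at 3 counts or fewer in every kidney (Il6ra, Il4ra and Lcn2 among them) are left out. Stat3, Socs3, Clcf1 and Myc lie to the right of 0 in both sets, and Il6st, Cntfr and Vegfa to the left.

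In the IL-4 and IL-13 axis, to which Il4ra belongs, 12 further genes were listed, of which 11 were in the table, 5 had no count and 5 were tested. None was called higher. In set A 0 were called lower and in set B 1, beside 11.7% and 11.9% of all genes tested. That gene was Irs2, an adaptor of insulin and IL-4 receptors, at 174 ± 72.8 CPM (SD, n = 4) in the controls and 101 ± 27.4 CPM in set B (log2 fold change -0.82, SE 0.25, adjusted p = 0.0225 in edgeR). That call was lost without control replicate 2 or 4 or set B replicate 1 (adjusted p up to 0.119).

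Between the ischemic sets no member was called. Over all genes tested, 1 gene (0.00857%) passed the threshold in edgeR. Among the 8 members tested, 0 passed it in edgeR, limma-trend or DESeq2, and 1 had an unadjusted p below 0.05 in edgeR. That gene was Il4ra (adjusted p = 0.960 in edgeR), which had no count in set A. Expressed as set B minus set A, the log2 difference was 0.04 (SE 0.13) for Stat3, 0.07 (SE 0.12) for Jak1, 0.01 (SE 0.26) for Il6st, -0.54 (SE 0.56) for Socs3 and -0.54 (SE 0.47) for Pim1. The spread for Stat3 and Jak1 was small, and that for Socs3 and Pim1 was too wide to bound a modest difference. Of the 53 tested genes in the wider lists, 0 passed the threshold in edgeR, limma-trend or DESeq2, and 1 (Pim3) had an unadjusted p below 0.05 in edgeR.

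Ratios of counts within a library need no scaling factor, but where a gene is at 0 the added 0.5 makes the ratio depend on the library's total. The log2 ratio of Socs3 to Stat3 counts (0.5 added to each) was -7.66 ± 1.36 (SD, n = 4) in the controls, -5.54 ± 0.58 (set A) and -6.18 ± 0.87 (set B). It was higher in set A by 2.12 (exact permutation test, two-sided, p = 0.0286, no overlap) and in set B by 1.48 (p = 0.114, overlapping). Leaving out 1 kidney gave a difference in set B of 0.79 (without control replicate 3, p = 0.143) to 1.80 (without set B replicate 4, p = 0.0286), with p of up to 0.286 by the same exact permutation test. The ratio of Il6ra to Il6st was higher than control by 4.03 in set A (exact permutation p = 0.171) and by 4.40 in set B (p = 0.0286), and since Il6ra was at 0 in 8 of the 12 kidneys it is set there by the added 0.5, by Il6st and by the library total, which was 15367342 and 20257933 in the 2 kidneys of set B without a count and up to 39155807 in the controls. With 5 added in place of 0.5 the difference in set B was 2.85. The ratio of Osmr to Lifr was higher by 1.75 in set A (exact permutation p = 0.514) and by 3.08 in set B (p = 0.229), with Osmr at 0 in 9 kidneys. In set B, 1 kidney had no count of either gene. Its log2 ratio of 0.0, set by the added 0.5 alone, was the highest of that set. Without set B replicate 3 the difference in set B was 4.57 (exact permutation p = 0.0286). That value still includes the kidney with neither gene and so rests in part on the added 0.5. The 3 ratios differed between set B and set A by -0.64, 0.37 and 1.33 in the same order, with exact permutation p-values of 0.286, 0.857 and 0.657.

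**Figure D4:**
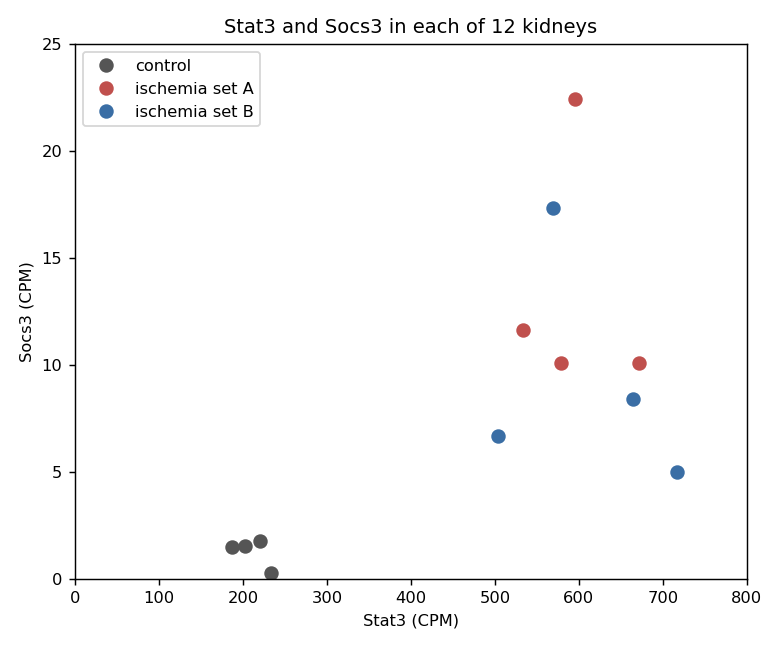
Socs3 against Stat3 in each of the 12 kidneys, both in CPM (linear axes from 0), coloured by group. The 4 controls form a cluster at low levels of both genes, and among the 8 ischemic kidneys the highest Socs3 values are not in the kidneys with the highest Stat3 values.

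Whether the other members followed Socs3 from kidney to kidney was examined in the 8 ischemic kidneys alone, since the controls form a separate cluster. Of 9 pairs planned, 8 could be computed, and 0 had a Benjamini-Hochberg adjusted p below 0.05. The largest coefficient was that of Pim1 (Pearson r = 0.525, exact permutation p = 0.176, adjusted 0.833, Spearman rho = 0.5, exact permutation p = 0.216, adjusted 0.707), and r was 0.764 (exact permutation p = 0.0931) without the 2 kidneys farthest from the median Socs3 level. Without those kidneys Jak1 had the largest rank coefficient (rho = -0.943, exact permutation p = 0.0167, adjusted 0.133, r = -0.343), against rho = -0.262 with them, and r of Il6st changed from 0.305 to -0.407 (exact permutation p = 0.455 and 0.432). For Stat3, r was -0.301 (exact permutation p = 0.465, adjusted 0.833) and rho was -0.238 (exact permutation p = 0.582, adjusted 0.707), and r was -0.00813 without those 2 kidneys. With deviations from the mean of each set, r was 0.386 for Pim1 (exact permutation p = 0.349) and -0.284 for Stat3 (p = 0.485), while rho of Pim1 was 0.0952 (exact permutation p = 0.84). On that scale the largest r was that of Il4ra (0.418, exact permutation p = 0.342), which had 3 counts or fewer in 5 of the 8 kidneys. The largest rho was that of Il6st (0.714, exact permutation p = 0.0576, adjusted 0.461, r = 0.343).

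Over the same 8 kidneys, the genes whose log2 CPM was most like that of Stat3 among 8512 candidates were Snord17 (r = 0.982), Jmjd1c (0.963) and Tuba4a (0.956). For Socs3 they were Mylk (r = 0.962), Dym (0.954) and Zfp697 (0.944). Of these 6 genes, only Tuba4a was also called against control, with log2 fold changes of 1.10 for set A and 1.08 for set B (adjusted p = 4.22e-06 and 5.47e-06 in edgeR). For Osmr, which was at 0 in 5 of the 8 kidneys, they were Rcc2 (0.961), Fbxw2 (0.954) and Sp3 (0.946) among 8513 candidates. Against control, Rcc2 was called higher with log2 fold changes of 1.41 (set A) and 1.34 (set B) (adjusted p = 3.68e-06 and 7.09e-06 in edgeR). Sp3 was called lower in set A only (-0.38, adjusted p = 0.0485 in edgeR), and Fbxw2 in neither set. The correlations are the top of a ranking over all candidates in 8 libraries and describe these libraries only.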

How the data were processed

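The RNA of 12 kidneys was sequenced by the authors as stranded mRNA libraries (single reads of 100 bases), aligned to mm10 with STAR and counted per gene with HTSeq. What the authors deposited are unnormalized counts. Tool versions, the annotation release and the strand setting are not given in the sources used here. The groups came from the titles and group fields of the labels, and the numbers in the titles named the replicates.

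The counts were analysed in edgeR 4.0.16 (R 4.3.3). The default filter (minimum count 10, minimum total 15) kept 11664 of 23420 genes, of which 14213 had a count. TMM factors lay between 0.968 and 1.03. All 12 kidneys entered one model with a term per group, with two-sided quasi-likelihood F-tests, Benjamini-Hochberg adjustment over all genes tested and a threshold of 0.05. The standard error (SE) is the log2 fold change divided by the root of F. CPM used counted totals, and RPKM used exon lengths of GENCODE M21, from which positions were also taken. Single values were compared by exact permutation. Correlations used log2 CPM with a prior count of 2. Promoter windows were those of RefSeq on GRCm38.p6.

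Replicate pairs differed by more than sampling noise (lowest chi-square over degrees of freedom 48.9). The procedure was tested on simulated counts. Alternatives were RLE size factors, DESeq2 1.42.0, limma-trend (limma 3.58.1), no filter, a filter of 1 CPM exceeded by 4 or more kidneys, a fit of 2 groups, a replicate block and leaving out each kidney. Tables, permutations and figures were made in Python 3.11.15 with SciPy 1.17.1, NumPy 2.4.6, matplotlib 3.10.9 and pandas 2.3.3. The members and gene lists were chosen with earlier results of these data known. Named were all members, the further family ligands and receptors, up to 4 genes of each other list by smallest adjusted p, and the 3 genes most like Stat3, Socs3 and Osmr at a mean log2 CPM of 1 or more. Other named genes are marked as such, apart from Stat5a, named for its overlap with Stat3, and defining markers. One item of the family is not reported here.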

Additional observations from a re-analysis of the deposited data

Results flagged for a closer look

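Among 24 sets of 4 kidneys in which a member varied, 5 held a kidney farther from the other 3 than Dixon's criterion at 95% allows. Chance flags about 1 set in 20 where values are continuous. In the 3 sets of Lif and Osmr named next, 3 kidneys were tied at 0, so the criterion is met whatever the value of the other kidney, and that rate does not apply. For Lif, control replicate 4 was at 0.718 CPM and set B replicate 2 at 1.06 CPM, and for Osmr, set B replicate 2 was at 2.92 CPM, each beside 3 kidneys of the same group with no count. For Jak1, set B replicate 4 was at 750.0 CPM beside 3 kidneys between 922.6 and 944.2 CPM. For Socs3, set A replicate 1 was at 22.4 CPM beside 3 kidneys between 10.1 and 11.6 CPM.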

How the results depend on the processing

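The counts of members called higher and lower in each comparison were the same under RLE size factors, both filters, the fit of 2 groups, limma-trend and DESeq2, apart from Pim1. In set A, Pim1 passed with an adjusted p of 0.0464 (filter of 1 CPM), 0.0380 (2 groups), 0.0425 (limma-trend), 0.0354 (DESeq2), 0.0260 (without control replicate 2) and 0.0475 (without set B replicate 4). Its adjusted p reached 0.169 in edgeR in another fit without 1 kidney. Leaving out each kidney gave 2 to 4 members higher and 0 to 1 lower in set A, and 3 higher and 0 to 1 lower in set B, and the wider lists had 11 to 18 genes (set A) and 12 to 16 genes (set B) called. The counts of 0 lower members came from the loss of Il6st, with adjusted p-values in edgeR of 0.0506 to 0.0607 and fewer kidneys in the fit. Between the sets, all genes called numbered 1 in edgeR, 6 without a filter, 27 in DESeq2 and 0 in limma-trend and in the fit of 2 groups.

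With the replicate number as a block (replicate block), 3 members were higher and 1 lower in each set, and 18 and 20 genes of the wider lists were called, against 15 and 14 without it. The correlations of same-numbered deviations lay between -0.0554 and 0.0452. Kidneys of different numbers were not compared, so these values do not settle whether kidneys shared an animal. Under the block the log2 fold change changed sign for Lif in set B (-0.66), Il4ra in set B (0.86) and Il6ra between the sets (0.40). In limma-trend it changed sign for Il4ra in set B (0.37). For Il6st between the sets it was -0.0060 in the fit of 2 groups and -0.0049 in limma-trend. None of these values passed the threshold, and the cause was not tested.

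Leaving out 1 kidney gave signs both ways for uncalled values: Lif in set B (-5.40 to 5.80), Il4ra in set B (-1.56 to 1.56), and, between the sets, Lif (-7.34 to 0.31), Il6st (-0.24 to 0.18), Il6ra (-1.73 to 1.20) and Stat3 (-0.028 to 0.12). The log2 count ratios ranged from 3.49 to 5.29 for Il6ra to Il6st in set B (p from 0.0286 to 0.0857), from -1.0 to 1.98 for the same ratio between the sets, from 2.01 to 4.57 for Osmr to Lifr in set B (exact permutation p from 0.0286 to 0.343) and from 0.79 to 1.80 for Socs3 to Stat3 in set B. For set A they ranged from 0.044 (without set A replicate 1) to 3.02 for Osmr to Lifr (exact permutation p from 0.229 to 1.0), from 2.42 to 5.40 for Il6ra to Il6st (p from 0.0571 to 0.314) and from 1.44 (without control replicate 3) to 2.36 for Socs3 to Stat3 (p = 0.0286 throughout). Between the sets they ranged from 0.052 (without set A replicate 3) to 3.03 (without set A replicate 1) for Osmr to Lifr (exact permutation p from 0.314 to 0.971) and from -1.03 to -0.32 for Socs3 to Stat3 (p from 0.0571 to 0.543). Statements on Il6, Lif, Osmr, Il6ra and Il4ra are limited by counts of 0 in many kidneys. Lif had 0 counts in control replicate 2 (total 39155807) and 28 in control replicate 4 (total 38977644). The relation of the counts of 0 to the library totals was not tested. Over all settings, 402 values of single members kept their direction and their side of the threshold, 10 lost the threshold, 6 gained it and 22 changed sign.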
